A study of Xenopus tropicalis with 2 samples.

Results

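The genes described here are the Wnt ligands of *Xenopus tropicalis* together with their receptors, co-receptors, secreted modulators and nuclear partners. They were taken by name, as every gene whose name starts with wnt, fzd, sfrp, dkk, rspo, lgr, lrp5, lrp6, axin, lef1 or tcf7, and 34 of the 35 genes so named had at least 1 UMI (a tag that marks 1 captured transcript) in called cells. That is 34 of 13295 genes detected in cells. The 34 comprise 8 Wnt ligands, 3 R-spondins, 5 Sfrp and 3 Dkk genes, 7 Frizzled receptors, 2 Lrp co-receptors, 2 Lgr receptors, axin1, and 3 genes of the Lef1/Tcf7 family. The gene named wnt3 had no UMI in cells.

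Wnt proteins are secreted lipid-modified ligands that bind Frizzled receptors on nearby cells. With the co-receptors Lrp5 or Lrp6 they stop the Axin complex from degrading β-catenin, which then acts with Lef1 and Tcf7 proteins on target genes, whereas ligands such as Wnt5 and Wnt11 act largely without β-catenin on cell polarity and movement. R-spondins, through Lgr receptors, keep Frizzled on the cell surface, while Sfrp proteins bind Wnts outside the cell and Dkk1 blocks Lrp5 and Lrp6. Wnt signalling is best known in tails for axis elongation and for outgrowth after amputation.

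Cells of both groups came from tadpoles that carried the transgenes pax6:GFP, cryga:RFP and actc1:RFP, in which a pax6 promoter drives GFP, raised from crosses of heterozygous carriers with wild type. In the 24hpa group the posterior part of the tail was amputated at NF stage 41, 3 days post fertilization, and the regenerated tissue was collected 24 hours later, whereas the uninjured group was made of tail tips of intact stage 41 tadpoles. Tails of many tadpoles were pooled, GFP+ cells were sorted with a gate set on wild-type tadpoles, and each group gave 1 library by the 10x 3′ version 2 protocol. With 1 library a group no test between groups was possible, all intervals cover counting error only, and injury, age, tissue position and library cannot be told apart.

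In depth the 24hpa library held 32798976 UMIs and 1090 cells, of which 295 were neural, and the uninjured library held 48622597 UMIs and 2617 cells, of which 780 were neural. The median cell had 10374.5 UMIs at 24hpa and 8289 in uninjured tails, and 1 cell barcode occurred in both libraries. Clusters are those the authors named, with the finer neural table used for neural cells, and 16 of 21 clusters had at least 20 cells in each library. Against marker lists, Spinal Cord Progenitor, Differentiating Neuron, Interneurons, Vulnerable Motor Neuron, Notochord, Mesenchyme and Skeletal Muscle carried the genes of their names. So did Motor Neuron in uninjured tails. Motor Neuron (leptin+) carried motor neuron markers. No list held leptin or dopaminergic markers, so those parts of the cluster names were not checked. Dopaminergic Neurons held 2 interneuron markers at 1029 CPM at 24hpa and 935 CPM in uninjured tails, and 4 neural progenitor markers at 916 and 981 CPM. Floor Plate held 3 floor plate markers at 256 CPM in its 1 cell at 24hpa and 597 CPM in uninjured tails. Notochord held those markers at 255 and 495 CPM, and Small Secretory Cell 1 at 386 and 519 CPM. Floor Plate also held 4 notochord markers at 1792 and 5148 CPM, and 4 neural progenitor markers at 1088 and 777 CPM. Bipotent Progenitor carried markers of several cell types. Its skeletal muscle markers stood at 13451 CPM at 24hpa and 26023 CPM in uninjured tails, and its notochord markers at 3024 and 4649 CPM. Neuron markers stood there at 1339 and 525 CPM, endothelium markers at 13.1 and 248 CPM, and 3 mesenchyme markers at 1746 and 419 CPM. The cluster named Dermomyotome went against its name, since 5 skeletal muscle markers summed there to 122287 CPM (UMI counts per 1000000 UMIs of the cells compared) at 24hpa and 71774 CPM in uninjured tails, while 3 mesenchyme markers summed to 28.8 and 19.6 CPM. The cluster named Myotome carried those mesenchyme markers at 3069 CPM at 24hpa and 2133 CPM in uninjured tails, against 453 and 1574 CPM of the muscle markers. It also held 4 notochord markers, which include collagens, at 9088 CPM at 24hpa and 3601 CPM in uninjured tails. Both names are kept below as labels of the tables only. Satellite Cells/Differentiating Myotome held the 1 muscle satellite marker found at 266 CPM at 24hpa and 645 CPM in uninjured tails. Its skeletal muscle markers stood at 582 and 2919 CPM, and its mesenchyme markers at 1238 and 1082 CPM. The part of makeup in the ratios of that cluster was not tested. The cluster named ROC, a label kept as deposited, held epidermal markers at 1953 CPM at 24hpa and 4526 CPM in uninjured tails, beside mesenchyme markers, which include collagens, at 5362 and 6511 CPM.

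Ligands and receptors shared some leading clusters and differed in others over the 16 clusters. Of the 23 members with at least 100 UMIs, 7 had their highest CPM, averaged over the libraries, in Mesenchyme, 3 in ROC, 3 in Satellite Cells/Differentiating Myotome, 2 each in Spinal Cord Progenitor, Notochord, Differentiating Neuron and Motor Neuron, and 1 each in Dermomyotome and Vulnerable Motor Neuron. For 13 of these 23 the leading cluster was the same in both libraries. Mesenchyme led for the ligands wnt11 and wnt5b, for rspo1 and rspo2, for dkk1, for the receptor fzd2 and for lrp5. Notochord led for fzd7 and lgr4, and Spinal Cord Progenitor for wnt4 and fzd6, so that the same cluster led for a ligand and a receptor in Mesenchyme and Spinal Cord Progenitor, but not in Notochord. Under 20 UMIs were counted for fzd3 (18), wnt2 (15), fzd4 (9), wnt8a (5), dkkx (4) and sfrp5 (1).

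**Figure D1:**
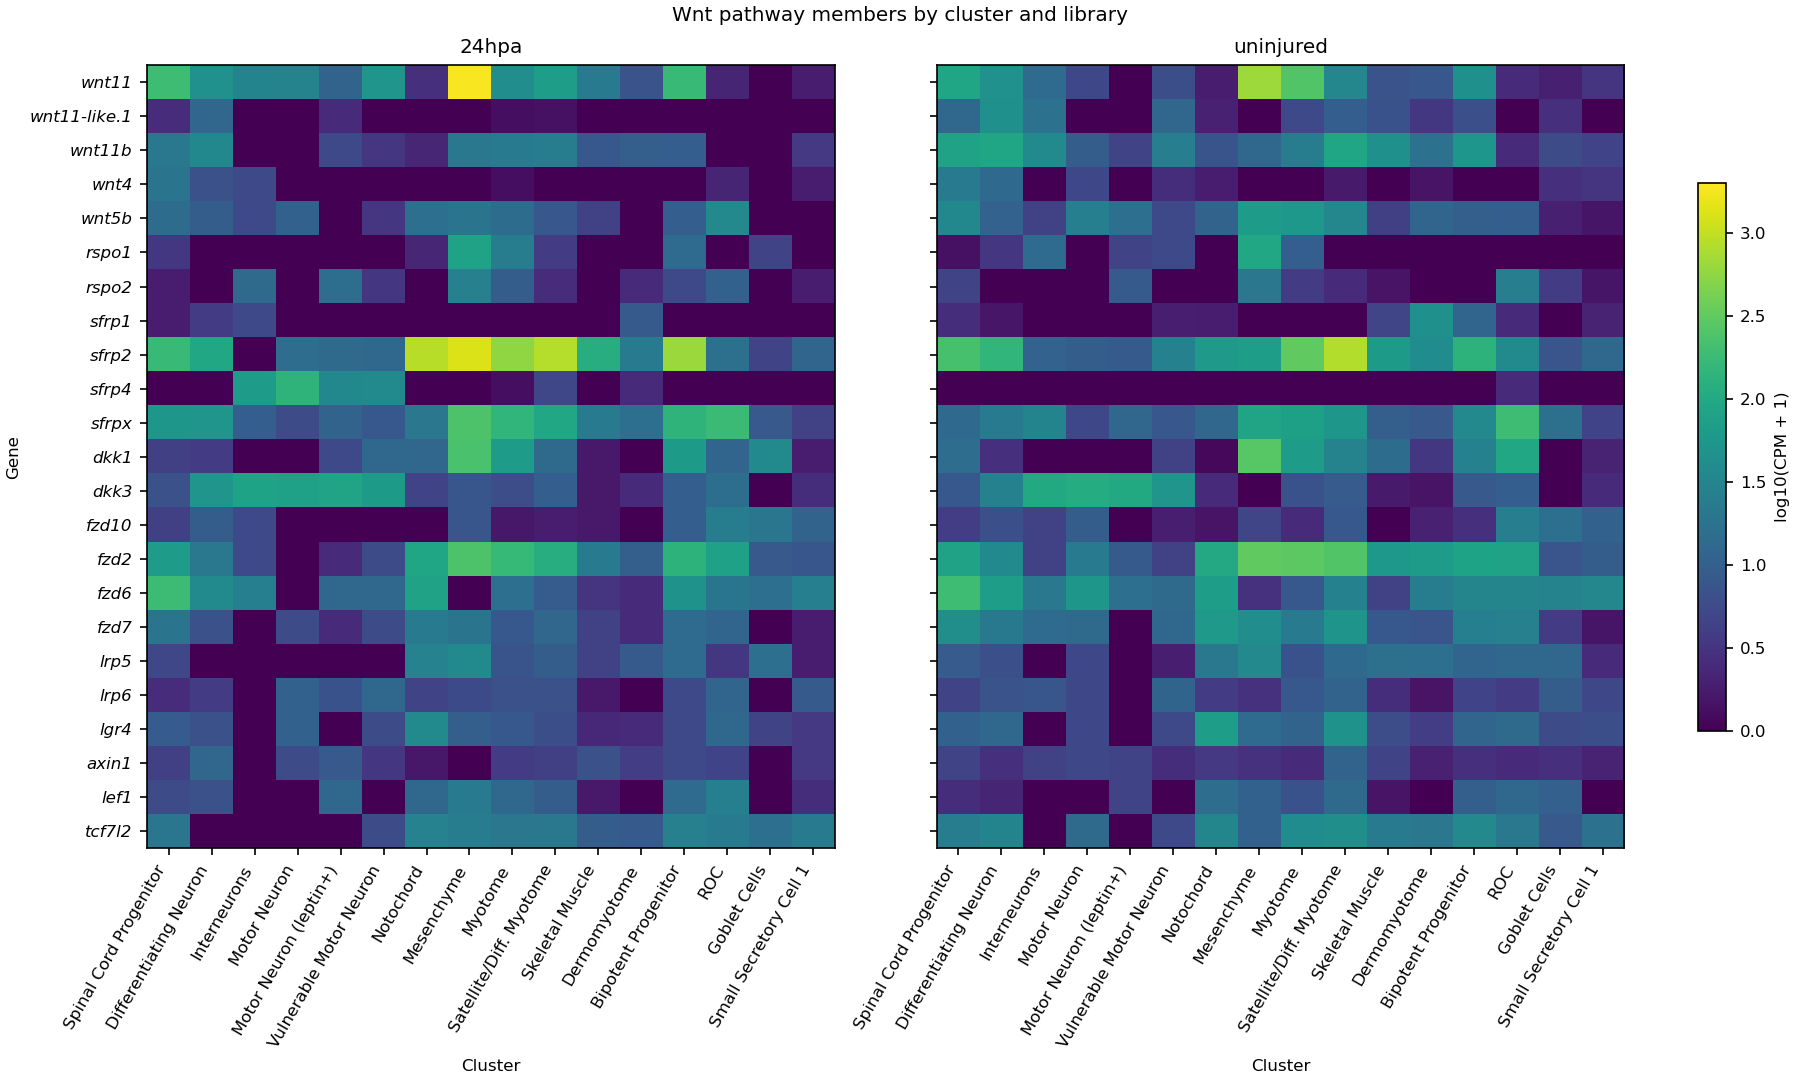
Level of the 23 members with at least 100 UMIs (vertical axis, ordered by role) in 16 clusters (horizontal axis), as log10 of CPM plus 1 in colour, with 24hpa cells in the left panel and uninjured cells in the right panel. wnt11 and sfrp2 reach the highest levels, wnt11 in Mesenchyme of both panels. sfrp2 is highest in Mesenchyme at 24hpa and in Satellite Cells/Differentiating Myotome in uninjured cells. sfrp4 is seen in neuronal clusters of the 24hpa panel.

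Over all cells, 28 of the 34 members had the 20 UMIs over both libraries that a comparison needed, and 6 were at least 2-fold higher and 8 at least 2-fold lower at 24hpa. Of all 11202 genes compared, 7.81% were at least 2-fold higher and 10.7% lower. The median log2 ratio of CPM, 24hpa over uninjured, was -0.05 for the members and 0.00 for all genes. The genes that were higher were sfrp4, sfrp2, sfrpx, wnt11, rspo1 and rspo2. The genes that were lower were wnt11-like.1, sfrp1, wnt10b, lgr5-like, fzd7, lgr4, wnt11b and wnt4. Among neural cells, 25 members could be compared, 4 were at least 2-fold higher and 9 lower, where 8.76% and 8.88% of 9501 genes were. The higher ones were sfrp4, lef1, rspo2 and sfrpx, and the lower ones wnt11-like.1, wnt11b, rspo1, lrp5, fzd7, wnt10b, wnt5b, rspo3 and tcf7l2. The neural median was -0.67 for the members and 0.09 for all genes. Clusters take different shares of the cells in each library, and in such sums more cells of a type and more RNA per cell cannot be told apart.

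**Figure D2:**
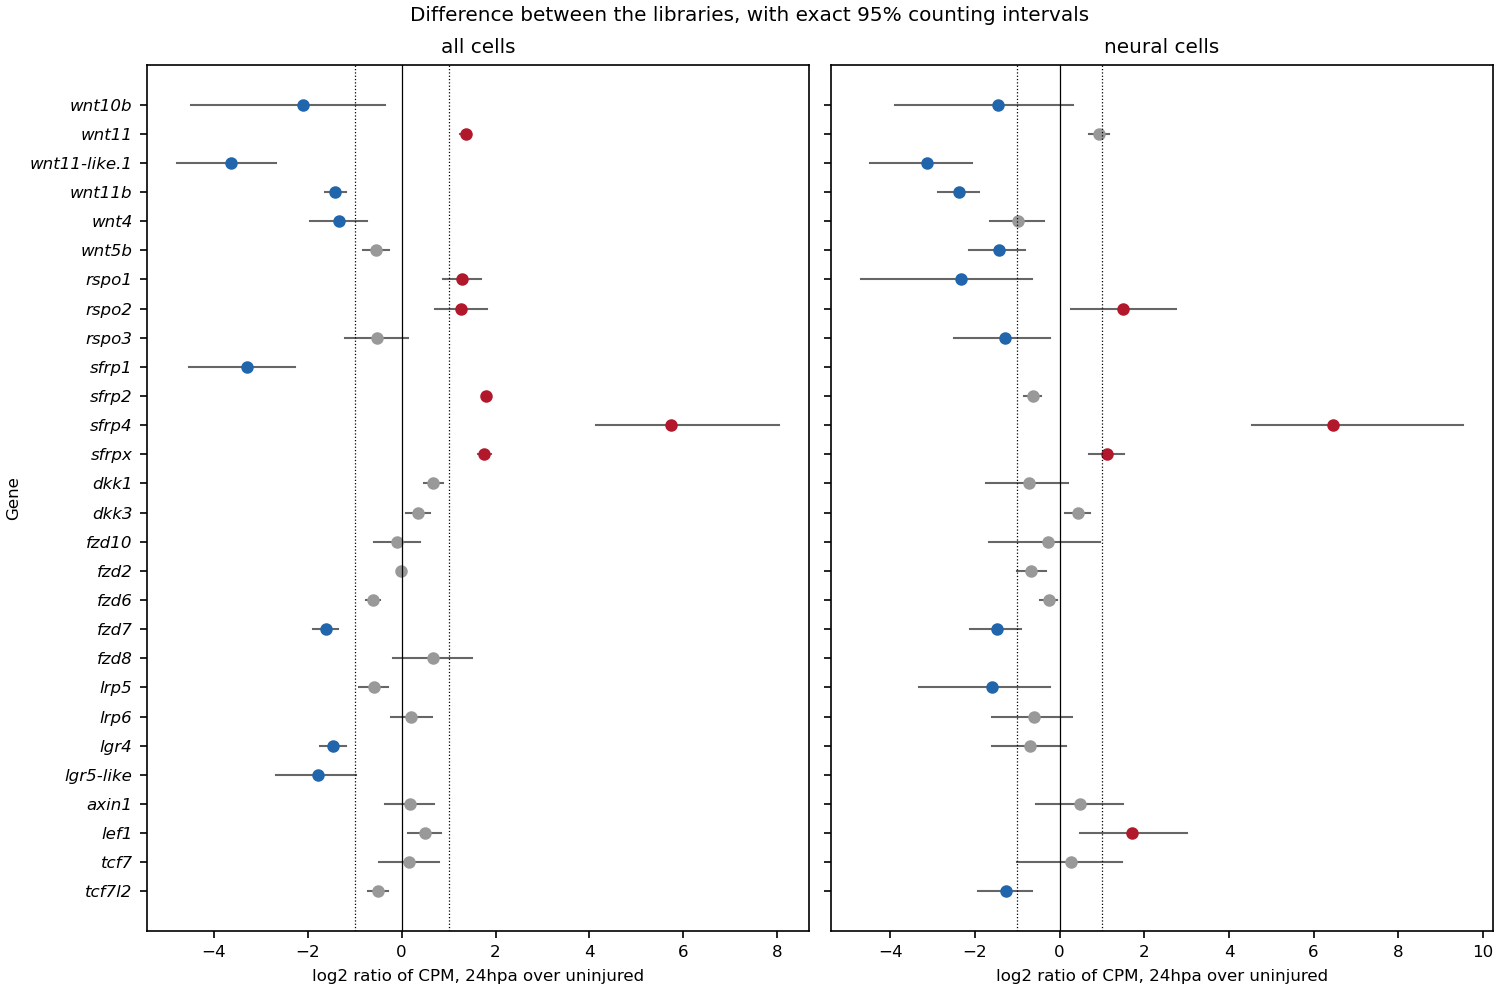
Log2 ratio of CPM, 24hpa over uninjured (horizontal axis), for each member compared (vertical axis, by role), over all cells on the left and neural cells on the right. Points are ratios, bars are exact 95% counting intervals, red marks at least 2-fold higher, blue at least 2-fold lower, grey less than 2-fold, and dotted lines stand at 2-fold. Sfrp genes sit mostly to the right, and most Wnt ligands and Frizzled receptors to the left.

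Within clusters the ligands and receptors were more often lower than higher at 24hpa, and the Sfrp genes more often higher. Over 146 pairs of a member and a cluster with at least 20 UMIs, 24 (16.4%) were at least 2-fold higher and 50 (34.2%) lower, whereas of 87212 pairs of any gene and cluster 9.63% were higher and 15.5% lower. For Wnt ligands 7 of 30 pairs were higher and 17 lower, and for Frizzled receptors 1 of 33 was higher and 13 lower. Much of these counts came from single genes. wnt11 gave 6 of the 7 higher ligand pairs, and wnt11b 7 and wnt11-like.1 3 of the 17 lower ones. fzd7 gave 8 of the 13 lower Frizzled pairs. The others were 3 of fzd2 and 2 of fzd6, all in Skeletal Muscle, Dermomyotome or Satellite Cells/Differentiating Myotome. For Sfrp genes 11 of 25 pairs were higher and 3 lower, with 6 of the 11 from sfrpx. The Dkk genes had 1 of 15 pairs higher and 4 lower, the Lef1/Tcf7 genes 2 of 17 higher and 5 lower, and the Lgr receptors none of 7 higher and 3 lower. R-spondins had 2 of 7 pairs higher and 2 lower, Lrp5/6 none of 10 higher and 2 lower, and axin1 none of 2 higher and 1 lower. These are counts by size, not tests.

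The 3 clusters Skeletal Muscle, Dermomyotome and Satellite Cells/Differentiating Myotome held 23 of the 50 lower pairs. Of 12 members compared in Skeletal Muscle 2 were at least 2-fold higher and 8 lower, where 6.21% and 33.3% of genes were, and of 9 in Dermomyotome 1 was higher and 6 lower, where 3.56% and 34.4% were. Of 17 in Satellite Cells/Differentiating Myotome 1 was higher and 9 lower, against 7.12% and 18.7% of genes. All genes leaned the same way in these clusters, with median log2 ratios of -0.52, -0.62 and -0.23 in that order, and the members' medians were -1.39, -1.25 and -1.12. In Myotome 4 of 18 members were higher and 5 lower, against 11.0% and 11.0% of genes. Among neural clusters most members could be compared in progenitors and differentiating neurons. In Spinal Cord Progenitor cells 2 of 17 members were higher and 5 lower, against 6.27% and 9.64%, and in Differentiating Neuron cells 1 of 13 was higher and 6 lower, against 7.45% and 14.5%. Vulnerable Motor Neuron had 1 of 5 higher and 2 lower, against 13.7% and 6.52%. Few members reached 20 UMIs in the other neurons, with 1 of 2 higher and 0 lower in Motor Neuron, against 13.2% and 8.67%, the same counts in Motor Neuron (leptin+), against 21.9% and 8.76%, and neither for the 1 member of Interneurons, against 10.4% and 6.30%. Higher values also outnumbered lower ones in Bipotent Progenitor, with 4 of 8 higher and 1 lower, against 14.4% and 18.0%, and Mesenchyme, with 3 of 10 higher and 2 lower, against 10.0% and 6.96%. Mesenchyme markers in Bipotent Progenitor were at 1746 CPM at 24hpa and 419 CPM uninjured, and the part of makeup in its ratios was not tested. Of its 4 higher members, dkk1 was under 2-fold with TMM scaling or without cells of high doublet score. ROC had 2 of 11 higher and 4 lower, against 14.5% and 18.7%, and Notochord 1 of 14 higher and 2 lower, against 11.8% and 12.3%. None of 5 members in Small Secretory Cell 1 was 2-fold different, against 3.25% of genes higher and 14.3% lower, nor were the 2 of Goblet Cells, against 4.80% and 21.7%. TMM scaling moved log2 ratios by -0.02 over all cells, by -0.11 in neural cells, and by between -0.27 in Vulnerable Motor Neuron and 0.44 in Dermomyotome within clusters.

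Among the ligands, wnt11 (Xetrov90007000m.g, a ligand of the β-catenin-independent branch that RefSeq also lists as wnt11r) had the most UMIs. It had 1523 UMIs at 24hpa and 970 in uninjured cells, or 94.6 and 36.8 CPM, a log2 ratio of 1.36 (95% interval 1.25 to 1.48). Mesenchyme gave 54.7% of its UMIs at 24hpa and 34.7% in uninjured tails, from 32 and 48 cells. In that cluster the level was 1845 CPM at 24hpa and 646 CPM in uninjured tails, a log2 ratio of 1.51 (1.33 to 1.70). Most Mesenchyme cells held it in both libraries, 31 of 32 at 24hpa and 39 of 48 uninjured. In Spinal Cord Progenitor cells, the highest of the 6 neural clusters with at least 20 cells in each library, it stood at 189 CPM at 24hpa and 87.4 CPM in uninjured tails (log2 ratio 1.11, 0.84 to 1.39). The smaller Floor Plate had 14 UMIs in 1 cell at 24hpa and 21 UMIs, or 92.2 CPM, in 23 uninjured cells. After each cell was thinned to 2600 UMIs, 40.4% of these progenitors at 24hpa and 19.9% of uninjured ones held wnt11, against 83.1% and 45.8% without thinning. Thinned Small Secretory Cell 1 cells held it in 0.28% at 24hpa and 0.81% uninjured. That cluster had median depths of 6282.5 and 4885 UMIs, where the progenitors had 14090 and 7739. It held epidermal markers at 1723 CPM at 24hpa and 2325 CPM uninjured, and blood markers at 7.59 and 2879 CPM. The part of RNA from other cells in the progenitor shares was not tested.

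wnt11 was at least 2-fold higher in 6 of 8 clusters compared and lower in 1. The other clusters where it was higher were Bipotent Progenitor, at 166 CPM at 24hpa and 43.8 CPM uninjured (log2 ratio 1.93), Satellite Cells/Differentiating Myotome, at 67.8 and 33.2 CPM (1.03), Vulnerable Motor Neuron, at 51.9 and 5.21 CPM (3.32), and Skeletal Muscle, at 21.1 and 5.93 CPM (1.83). The values of Vulnerable Motor Neuron and Skeletal Muscle rested on few cells, since 1 cell held 11 of 22 and 23 of 30 UMIs of the 24hpa cells, and without cells of high doublet score the Vulnerable Motor Neuron value had under 20 UMIs. Without those cells wnt11 was at least 2-fold higher in 5 of 7 clusters compared, and after thinning in 3 of 6. Differentiating Neuron cells had 45.4 CPM at 24hpa and 45.3 CPM uninjured. The cluster named Myotome went the other way, with 40.9 CPM at 24hpa and 253 CPM in uninjured tails (log2 ratio -2.63, -2.97 to -2.30). That cluster had 184 cells at 24hpa and 81 uninjured, with median depths of 17295.5 and 8432 UMIs, and the part of depth and makeup in the value was not tested.

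wnt11b (Xetrov90020286m.g), the Wnt11 gene known from axis formation in Xenopus laevis, was lower at 24hpa, where wnt11 was higher. It had 201 UMIs at 24hpa and 877 in uninjured cells, or 12.5 and 33.2 CPM (log2 ratio -1.41, -1.64 to -1.19), and in neural cells 12.5 and 64.8 CPM (-2.37, -2.87 to -1.91). Its ratio was below 0 in all 9 clusters compared and at least 2-fold lower in 7. Spinal Cord Progenitor cells had 20.2 CPM at 24hpa and 78.2 CPM uninjured (-1.95), Differentiating Neuron cells 34.0 and 85.4 CPM (-1.33), Satellite Cells/Differentiating Myotome 24.1 and 86.6 CPM (-1.85) and Skeletal Muscle 7.02 and 43.8 CPM (-2.64). The lowest ratio was that of Vulnerable Motor Neuron, with 1 UMI at 24hpa and 29 uninjured (-3.42, -8.77 to -0.82), and the highest that of Myotome, at 20.9 and 23.0 CPM (-0.14). With TMM scaling the Myotome ratio was 0.05 and the other 8 stayed below 0. By the mean of CPM per cell 1 of the 9 clusters was above 0, and after thinning 1 of the 5 that could be compared. Of the 436 uninjured neural UMIs, 48 lay in Floor Plate, 12 of them in 1 cell. That cluster held 227663 UMIs in 23 uninjured cells and had 1 cell at 24hpa, so it was not compared, although it enters the neural ratio. Uninjured neural and muscle clusters thus carried this ligand, and those compared held less of it at 24hpa.

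The gene named wnt11-like.1 (Xetrov90020285m.g) stands next to wnt11b in the deposited identifiers, and RefSeq lists a second wnt11b copy beside wnt11b, so reads of near-identical copies may be split between them and neither level is certain. It had 9 UMIs at 24hpa and 182 in uninjured cells, or 0.559 and 6.90 CPM (log2 ratio -3.63, -4.78 to -2.67). Its highest level was in Differentiating Neuron, at 11.3 CPM at 24hpa and 44.7 CPM uninjured (-1.98), and Spinal Cord Progenitor cells had 2 UMIs at 24hpa and 29 uninjured (-2.91). In Skeletal Muscle there were 0 and 23 UMIs, which puts the log2 ratio at -1.43 or lower with 3 UMIs set over the group for the 0. Both genes of this pair were lower at 24hpa in each of the 3 clusters where wnt11-like.1 could be compared.

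wnt5b (Xetrov90030950m.g), a ligand of cell polarity and outgrowth, differed between clusters in direction. Over all cells it had 153 UMIs at 24hpa and 365 uninjured, or 9.51 and 13.8 CPM (log2 ratio -0.54, -0.82 to -0.27). In ROC cells it was higher, at 34.8 CPM at 24hpa and 8.68 CPM uninjured (2.005, 0.71 to 3.56), from 29 UMIs in 22 of 83 cells and 6 UMIs in 6 of 88 cells. It was lower in Satellite Cells/Differentiating Myotome, at 6.82 and 33.2 CPM (-2.28), in Myotome, at 13.7 and 56.2 CPM (-2.03), in Mesenchyme, at 17.7 and 65.2 CPM (-1.88), and in Spinal Cord Progenitor cells, at 13.7 and 33.9 CPM (-1.30). In Dermomyotome 0 UMIs at 24hpa stood against 22 uninjured, a log2 ratio of -1.25 or lower. ROC was therefore the leading cluster for wnt5b at 24hpa, and Mesenchyme in uninjured tails.

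**Figure D3:**
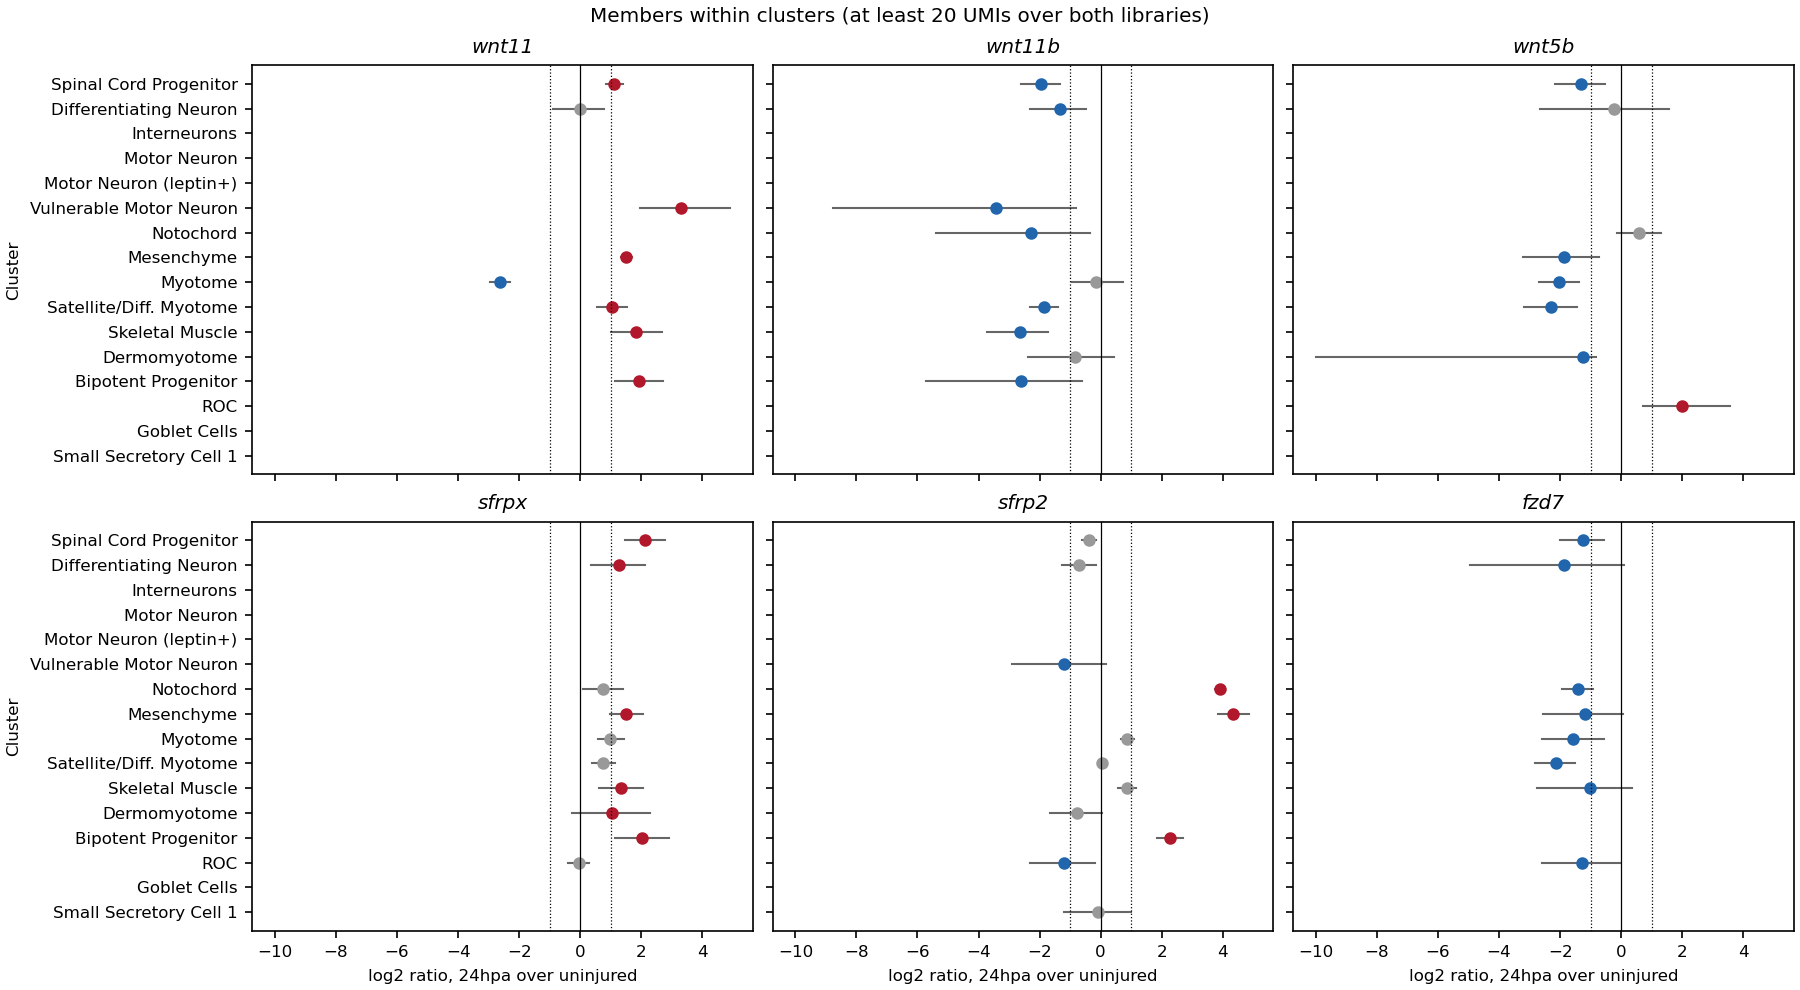
Log2 ratio of CPM, 24hpa over uninjured (horizontal axis), by cluster (vertical axis) for 6 members, with exact 95% counting intervals as bars, red and blue for at least 2-fold higher and lower, and dotted lines at 2-fold. wnt11 is higher in 6 of 8 clusters and lower in Myotome, wnt11b and fzd7 lie below 0 in every cluster compared (with TMM scaling, all but wnt11b in Myotome), and sfrpx is at least 2-fold higher in 6 of 10. The wnt5b value of Dermomyotome is a bound, and its interval has no lower end.

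wnt4 (Xetrov90018493m.g), a ligand known from kidney formation in the mouse, was a gene of the neural tube here. Neural cells held 27 of its 30 UMIs at 24hpa and 110 of 123 in uninjured tails. Its level in Spinal Cord Progenitor cells was 17.8 CPM at 24hpa and 21.8 CPM uninjured (log2 ratio -0.29, -1.08 to 0.45), a difference within counting error. Over all cells it was 1.86 and 4.66 CPM (-1.32, -1.95 to -0.74), and 25 of the uninjured UMIs lay in 23 Floor Plate cells, at 110 CPM, a cluster with 1 cell at 24hpa. Weighted to the uninjured makeup of clusters the ratio was -0.64. Differentiating Neuron cells had 2 UMIs at 24hpa and 21 uninjured (-1.12, -4.26 to 0.91).

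The remaining ligands were scarce. wnt10b (Xetrov90006200m.g), a ligand of the β-catenin branch, had 3 UMIs at 24hpa and 21 uninjured (log2 ratio -2.09, -4.48 to -0.35), with 10 of the 21 in Spinal Cord Progenitor cells and 7 in 49 Dopaminergic Neurons, of which the 24hpa library had 8 cells. wnt2 (Xetrov90008153m.g), known from lung development in the mouse, had 15 UMIs in 10 cells at 24hpa and 0 in 2617 uninjured cells, where 0 allows up to 0.114 CPM. Of these 15 UMIs, 14 were in neural cells and 10 in 6 of 56 Vulnerable Motor Neuron cells, at 23.6 CPM (95% Poisson interval 11.3 to 43.4), against 0 UMIs in 164 uninjured cells of that cluster. With under 20 UMIs it stays outside the comparisons. wnt8a had 0 UMIs at 24hpa and 5 uninjured, 4 of them in Dermomyotome.

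The R-spondin rspo1 was highest in Mesenchyme in both libraries, and rspo2 there at 24hpa and in ROC in uninjured tails. rspo1 (Xetrov90004962m.g) had 128 UMIs at 24hpa and 86 uninjured, or 7.95 and 3.26 CPM (log2 ratio 1.29, 0.88 to 1.70). Its level in Mesenchyme, the leading cluster, was 79.8 CPM at 24hpa and 92.0 CPM uninjured (-0.21, -0.87 to 0.45), while Myotome, with 184 of 1090 cells at 24hpa and 81 of 2617 uninjured, had 23.7 and 8.64 CPM (1.46, 0.27 to 2.95). Weighted to the uninjured makeup of clusters the ratio over all cells was -0.085, so the higher level over all cells was not seen at an equal makeup. In neural cells rspo1 was lower, with 3 UMIs at 24hpa and 31 uninjured (-2.33, -4.68 to -0.65). Of those 31 UMIs, 16 lay in 12 of the 23 uninjured Floor Plate cells, at 70.3 CPM.

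rspo2 (Xetrov90017082m.g) had 70 UMIs at 24hpa and 48 uninjured, or 4.35 and 1.82 CPM (log2 ratio 1.26, 0.71 to 1.82), and -0.15 once weighted to the uninjured makeup. Mesenchyme had 26.6 CPM at 24hpa and 19.2 CPM uninjured (0.47, -0.86 to 1.84). ROC cells had less, at 9.61 and 24.6 CPM (-1.36, -2.78 to -0.07), and Myotome more, with 27 UMIs at 24hpa and 2 uninjured (1.55, -0.44 to 4.67). In neural cells there were 15 and 11 UMIs (1.49, 0.27 to 2.76), 10 of the 15 in Motor Neuron (leptin+) cells, a cluster with 68 cells at 24hpa and 27 uninjured. Without that cluster the neural ratio was 0.48. Among the 16 clusters with at least 20 cells in each library, rspo3 (Xetrov90013619m.g) was highest in Spinal Cord Progenitor cells. It stood there at 7.26 CPM at 24hpa and 11.3 CPM uninjured (-0.64, -1.91 to 0.49). It was lower in Myotome, with 15 UMIs at 24hpa and 7 uninjured (-1.11, -2.49 to 0.43). Over neural cells rspo3 had 9 and 45 UMIs (-1.28, -2.50 to -0.23), and 12 of the 45 were in Floor Plate cells. That smaller cluster thus had a higher uninjured level, with 12 of 227663 UMIs against 27 of 2.39068e+06 in Spinal Cord Progenitor. All 3 R-spondins thus had UMIs in Mesenchyme or Myotome, and rspo1 and rspo3 also in the uninjured cluster named Floor Plate. Spinal Cord Progenitor cells held 27 of the 68 uninjured rspo3 UMIs and 9 of 29 at 24hpa, where Myotome held 15.

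sfrp2 (Xetrov90000885m.g), a secreted Wnt-binding protein, had the most UMIs of the members. It had 6545 UMIs at 24hpa and 3071 uninjured, or 407 and 116 CPM (log2 ratio 1.80, 1.74 to 1.87). Satellite Cells/Differentiating Myotome, the leading cluster over both libraries, differed little, at 852 CPM at 24hpa and 825 CPM uninjured (0.05, -0.06 to 0.15). Mesenchyme had 1349 CPM at 24hpa and 67.1 CPM uninjured (4.33, 3.84 to 4.87), and Notochord 872 and 58.3 CPM (3.90, 3.73 to 4.08). At 24hpa 32 of 32 Mesenchyme cells and 48 of 63 Notochord cells held a UMI, against 13 of 48 and 119 of 291 uninjured cells, and the highest cell gave 14.9% and 9.32% of the 24hpa UMIs, so these levels did not rest on a few cells. Bipotent Progenitor cells had 639 CPM at 24hpa and 133 CPM uninjured (2.26). In ROC it was lower, at 15.6 and 36.2 CPM (-1.21, -2.30 to -0.19), and in Vulnerable Motor Neuron it had 5 and 31 UMIs (-1.19, -2.91 to 0.19). Free RNA, read from barcodes of 1 to 100 UMIs, held sfrp2 at 277 CPM at 24hpa and 90.9 CPM uninjured. sfrp2 was thus at least 2-fold higher in 3 of 12 clusters and lower in 2, and with TMM scaling higher in 5. Skeletal Muscle was among these 5, and there 1 cell held 145 of the 160 UMIs at 24hpa. Subtracting 10% of free RNA left the ratio over all cells at 1.82, and 4 clusters were then lower. The progenitors of the spinal cord held 167 CPM at 24hpa and 218 CPM uninjured (-0.38, -0.62 to -0.15).

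sfrpx (Xetrov90025784m.g), a frog gene of the same family, was higher more evenly. It had 1191 UMIs at 24hpa and 575 uninjured, or 74.0 and 21.8 CPM (log2 ratio 1.76, 1.62 to 1.91), and 0.96 when weighted to the uninjured makeup. It was at least 2-fold higher in 6 of 10 clusters and lower in none. Spinal Cord Progenitor cells had 54.1 CPM at 24hpa and 12.5 CPM uninjured (2.11, 1.47 to 2.78), Bipotent Progenitor cells 140 and 34.7 CPM (2.01) and Mesenchyme 235 and 82.4 CPM (1.51). ROC cells, with the highest mean level, had 179 CPM at 24hpa and 185 CPM uninjured (-0.05, -0.40 to 0.30). Free RNA held it at 67.5 CPM at 24hpa and 13.5 CPM uninjured, and with 10% of free RNA subtracted 5 of the 10 clusters remained at least 2-fold higher. The neural ratio was 1.11 (0.70 to 1.53), and 0.89 with that subtraction.

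sfrp4 (Xetrov90016489m.g), a further Wnt-binding member, was mostly a gene of neurons in the 24hpa library. Of 97 UMIs at 24hpa 85 were in neural cells, and uninjured cells had 3 UMIs in all, 2 of them in Floor Plate (log2 ratio over all cells 5.73, 4.14 to 8.03). Motor Neuron cells held 29 UMIs in 8 of 33 cells at 24hpa, or 138 CPM, and 0 in 52 uninjured cells, which puts the ratio at 3.44 or higher. In this cluster 3 motor neuron markers summed to 424 CPM at 24hpa and 1258 CPM uninjured, and 2 interneuron markers to 419 and 16.9 CPM, and their part in the sfrp4 value was not tested. Motor Neuron (leptin+) cells held 23 UMIs in 13 of 68 cells, at 33.3 CPM, and 0 in 27 uninjured cells, a ratio of 1.55 or higher. Vulnerable Motor Neuron and Interneurons had 15 UMIs each at 24hpa, in 9 of 56 and 6 of 27 cells, and 0 in 164 and 37 uninjured cells. In Interneurons 9 of the 15 UMIs came from 1 cell. Spinal Cord Progenitor and Differentiating Neuron cells had 0 UMIs in both libraries. Outside neural cells, Satellite Cells/Differentiating Myotome held 10 UMIs in 9 of 105 cells at 24hpa, while the 3 uninjured UMIs lay in Floor Plate and ROC. sfrp4 thus lay mostly in neuronal clusters of the 24hpa library, with wnt2 in Vulnerable Motor Neuron among them. Free RNA held sfrp4 at 7.50 CPM at 24hpa and 0 CPM uninjured.

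**Figure D4:**
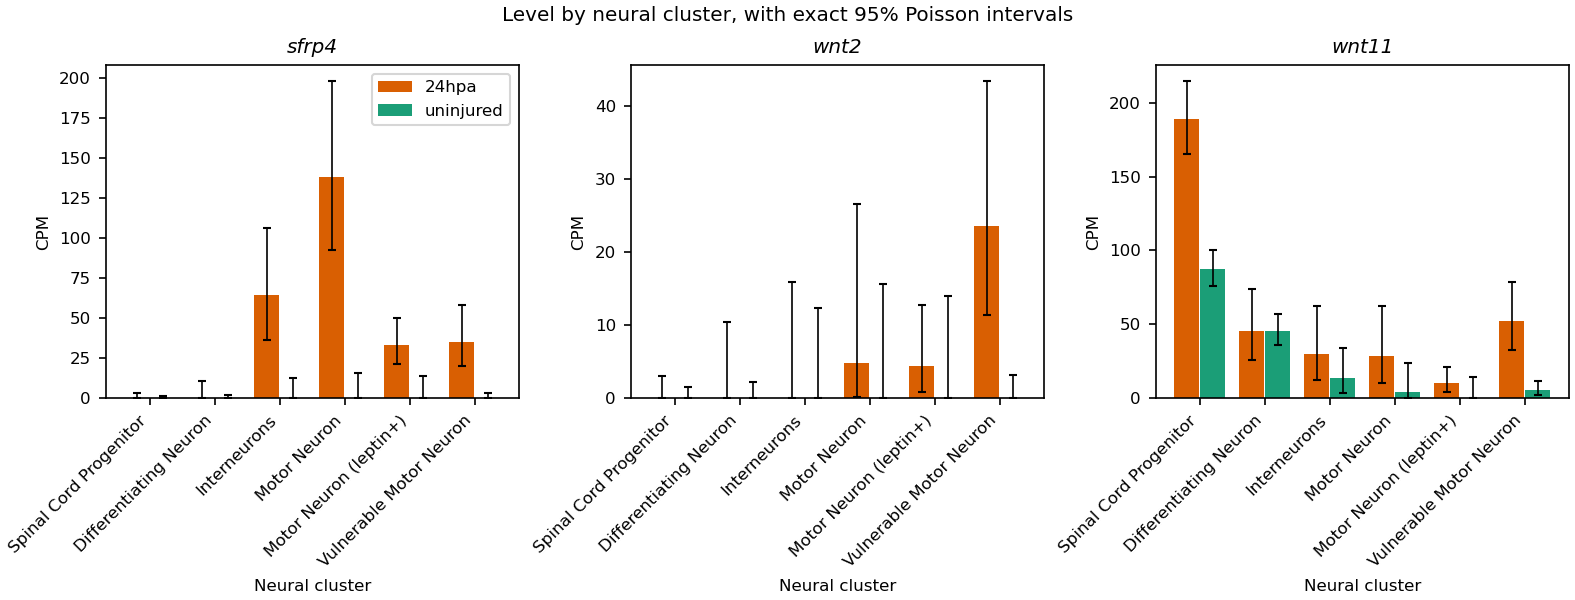
Level (CPM, vertical axis) of sfrp4, wnt2 and wnt11 in 6 neural clusters (horizontal axis), with 24hpa in orange left of uninjured in green and exact 95% Poisson intervals as bars. sfrp4 and wnt2 had UMIs in neurons of the 24hpa library and 0 in the same uninjured clusters, and wnt11 was highest in Spinal Cord Progenitor cells of both libraries.

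sfrp1 (Xetrov90009029m.g) went the other way. It had 8 UMIs at 24hpa and 128 uninjured, or 0.497 and 4.85 CPM (log2 ratio -3.29, -4.53 to -2.27). Dermomyotome, the muscle-rich cluster, held 5 of 8 and 90 of 128 UMIs, at 7.57 CPM at 24hpa and 44.2 CPM uninjured (-2.54, -4.20 to -1.27). In that cluster 34.4% of all 4665 genes compared were at least 2-fold lower. Over the family, then, sfrp2, sfrp4 and sfrpx were higher at 24hpa and sfrp1 lower, while sfrp5 had 1 UMI in all.

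dkk1 (Xetrov90017466m.g), the inhibitor that binds Lrp5 and Lrp6, was highest in Mesenchyme, at 222 CPM at 24hpa and 278 CPM uninjured (log2 ratio -0.33, -0.71 to 0.05). Over all cells it had 404 UMIs at 24hpa and 415 uninjured (0.67, 0.47 to 0.88), and -0.35 when weighted to the uninjured makeup. The cluster named Myotome had 64.3 CPM at 24hpa and 63.4 CPM uninjured (0.02) and made up more of the 24hpa cells. It was lower in ROC cells, with 9 UMIs at 24hpa and 63 uninjured (-3.08, -4.27 to -2.06), in Skeletal Muscle, with 1 and 55 (-4.28, -9.61 to -1.74), in Spinal Cord Progenitor cells, with 4 and 34 (-2.14, -4.10 to -0.65), and in Satellite Cells/Differentiating Myotome, with 32 and 40 (-1.17, -1.89 to -0.46). In ROC cells of the 24hpa library 5 of the 9 UMIs came from 1 cell. Bipotent Progenitor cells had 61.3 and 27.4 CPM (1.16, 0.00 to 2.31), which was under 2-fold with TMM scaling or without cells of high doublet score. Of the 7 clusters compared, 4 thus held at least 2-fold less dkk1 at 24hpa and 1 more. With TMM scaling 3 were lower and 0 higher, and by the mean of CPM per cell 3 were lower and 1 higher. After thinning 1 of 4 clusters compared was lower and 0 higher.

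dkk3 (Xetrov90026565m.g), a divergent member of the family, was neuronal in both libraries and differed by less than 2-fold in all 8 clusters compared. Motor Neuron cells had 76.2 CPM at 24hpa and 110 CPM uninjured (log2 ratio -0.53, -1.53 to 0.42), Interneurons 81.8 and 100 CPM (-0.29), and Motor Neuron (leptin+) cells 82.5 and 98.8 CPM (-0.26). Spinal Cord Progenitor cells had 5.65 and 7.11 CPM. Over all cells the gene had 224 and 287 UMIs (0.36, 0.10 to 0.61).

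Of 33 pairs of a Frizzled receptor and a cluster, 13 were at least 2-fold lower at 24hpa and 1, fzd6 in Myotome, was higher. fzd7 (Xetrov90023958m.g), a receptor of both Wnt branches known from gastrulation in Xenopus laevis, had 144 UMIs at 24hpa and 722 uninjured, or 8.95 and 27.4 CPM (log2 ratio -1.61, -1.88 to -1.35). It was at least 2-fold lower in all 8 clusters compared, from -2.15 in Satellite Cells/Differentiating Myotome (11.2 CPM at 24hpa and 49.8 CPM uninjured) to -1.03 in Skeletal Muscle, and with TMM scaling in 7 of 8. Notochord, its leading cluster, had 22.9 CPM at 24hpa and 60.5 CPM uninjured (-1.40, -1.94 to -0.91), and Spinal Cord Progenitor cells 17.8 and 42.2 CPM (-1.25, -1.99 to -0.57). No other member compared in more than 3 clusters was 2-fold lower in every one of them.

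fzd2 (Xetrov90024882m.g), the receptor with the most UMIs, was level over all cells, with 1290 UMIs at 24hpa and 2120 uninjured, or 80.2 and 80.4 CPM (log2 ratio 0.00, -0.11 to 0.10). Mesenchyme had 239 CPM at 24hpa and 307 CPM uninjured (-0.36), and Notochord 85.7 and 96.6 CPM (-0.17). It was at least 2-fold lower in 3 of 11 clusters, all of them muscle-related by marker or name: Dermomyotome, at 9.08 and 65.3 CPM (-2.85), Skeletal Muscle, at 21.1 and 55.9 CPM (-1.41), and Satellite Cells/Differentiating Myotome, at 114 and 252 CPM (-1.14). Of all genes compared, 34.4%, 33.3% and 18.7% were at least 2-fold lower in these clusters, in that order. When each cell counted the same, fzd2 was 2-fold lower in 1 of the 11 clusters. Weighted to the uninjured makeup its ratio over all cells was -0.63.

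fzd6 (Xetrov90017100m.g), a receptor of planar cell polarity, was the Frizzled with the most UMIs in spinal cord progenitors. It had 228 UMIs there at 24hpa and 449 uninjured. fzd2 had 81 UMIs in 46 of 71 progenitors at 24hpa and 188 UMIs in 121 of 273 uninjured ones. Its level in Spinal Cord Progenitor cells was 184 CPM at 24hpa and 188 CPM uninjured (log2 ratio -0.03, -0.27 to 0.20), and they held 42.6% and 33.7% of all fzd6 UMIs. Notochord had 78.1 and 70.0 CPM (0.16). fzd6 was lower in Dermomyotome, with 1 UMI at 24hpa and 49 uninjured (-3.99, -9.32 to -1.44), and in Satellite Cells/Differentiating Myotome, at 8.02 and 27.4 CPM (-1.77), and higher in Myotome, with 48 and 5 UMIs (1.06, -0.26 to 2.74). fzd10 (Xetrov90003059m.g) was highest in ROC, at 24.0 CPM at 24hpa and 24.6 CPM uninjured (-0.03, -1.04 to 0.99), and had less than 2-fold ratios in the 3 clusters compared. fzd8 had 26 and 27 UMIs, 7 and 8 of them in ROC, and fzd3 and fzd4 had under 20 UMIs.

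The co-receptors were low in most clusters. lrp5 (Xetrov90011185m.g) had 127 UMIs at 24hpa and 315 uninjured (log2 ratio -0.60, -0.91 to -0.30) and stood at 35.4 CPM at 24hpa and 34.5 CPM uninjured in Mesenchyme (0.04, -1.03 to 1.09). Notochord, next in level, had 27.9 and 19.8 CPM (0.50, -0.04 to 1.01) and held 34.6% and 37.5% of its UMIs. It was lower in Skeletal Muscle, at 3.51 and 15.3 CPM (-2.13, -3.80 to -0.83), and in Dermomyotome, at 7.57 and 15.2 CPM (-1.01, -2.73 to 0.37), although by the mean of CPM per cell neither was 2-fold. In neural cells it had 5 UMIs at 24hpa and 31 uninjured (-1.59, -3.31 to -0.22), and the ratio was -0.63 by the mean of CPM per cell and -0.18 after thinning. lrp6 (Xetrov90027652m.g) had 79 and 112 UMIs (0.21, -0.23 to 0.64) and was less than 2-fold different in its 3 clusters. Of the 16 clusters with at least 20 cells in each library it was highest in Vulnerable Motor Neuron, at 11.8 and 10.4 CPM.

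lgr4 (Xetrov90010429m.g), an R-spondin receptor, was most abundant in Notochord, at 37.5 CPM at 24hpa and 69.5 CPM uninjured (log2 ratio -0.89, -1.31 to -0.50). Over all cells it had 134 UMIs at 24hpa and 605 uninjured (-1.46, -1.74 to -1.19), with 44.0% and 68.4% of them in Notochord. All 6 clusters compared lay below 0, and 3 were at least 2-fold lower, with the lowest ratio in Satellite Cells/Differentiating Myotome, at 5.21 and 46.9 CPM (-3.17, -4.15 to -2.30). Skeletal Muscle (-1.82) and Differentiating Neuron (-1.05) had 2 UMIs each at 24hpa and 20 each uninjured. By the mean of CPM per cell 1 of the 6 clusters lay above 0 for lgr4, and 2 were at least 2-fold lower. With 10% of free RNA subtracted 2 were 2-fold lower, and with TMM scaling 4. lgr5-like (Xetrov90008033m.g) was mostly found in Notochord, with 12 of 15 UMIs at 24hpa and 65 of 84 uninjured. Its ratio was -1.77 (-2.67 to -0.97) over all cells and -0.52 (-1.54 to 0.38) within Notochord, which had 63 cells at 24hpa and 291 uninjured.

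Among intracellular members, axin1 (Xetrov90023104m.g), a scaffold of the complex that degrades β-catenin, had 53 UMIs at 24hpa and 77 uninjured (log2 ratio 0.17, -0.36 to 0.70). It was lower in Satellite Cells/Differentiating Myotome, with 8 and 14 UMIs (-1.65, -3.11 to -0.30). lef1 (Xetrov90001069m.g), a DNA-binding partner of β-catenin and itself a common Wnt target, was higher in ROC, at 25.2 CPM at 24hpa and 11.6 CPM uninjured (1.12, -0.11 to 2.51), and in Myotome, at 11.9 and 5.76 CPM (1.04, -0.43 to 2.99). Both intervals reach below 0. In neural cells lef1 had 16 UMIs at 24hpa and 10 uninjured (1.72, 0.49 to 3.02), a ratio that turned to -0.92 after thinning, and Notochord had 12.1 and 14.1 CPM (-0.23). tcf7 had 37 and 54 UMIs (0.17, -0.48 to 0.80).

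tcf7l2 (Xetrov90030375m.g), of the same family, was spread over nearly all clusters and lower in several. It had 267 UMIs at 24hpa and 621 uninjured (log2 ratio -0.51, -0.72 to -0.30), and 27 and 133 in neural cells (-1.26, -1.91 to -0.65). Of 10 clusters compared, 5 were at least 2-fold lower. Differentiating Neuron cells had 0 UMIs in 31 cells at 24hpa and 50 in 155 uninjured cells, a ratio of -1.79 or lower. Satellite Cells/Differentiating Myotome had 19.7 CPM at 24hpa and 42.6 CPM uninjured (-1.12), Skeletal Muscle 8.42 and 21.8 CPM (-1.37), and Dermomyotome 7.57 and 19.6 CPM (-1.37). The last of the 5 was Myotome, where tcf7l2 had 62 of 3.20414e+06 UMIs at 24hpa and 27 of 694288 uninjured. Notochord had 27.9 and 31.4 CPM (-0.17). With TMM scaling 2 of the 10 clusters were at least 2-fold lower.

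Of 51 further genes of the pathway listed for comparison, 33 were found. Over all cells 32 could be compared, with 3 at least 2-fold higher and 5 lower and a median log2 ratio of -0.20. Of all genes 7.81% were higher and 10.7% lower with a median of 0.00, so in the sum over all cells the list lay near the background. The higher ones were ror1, a receptor of Wnt5-type ligands, with 25 UMIs at 24hpa and 5 uninjured (log2 ratio 3.03), sostdc1, a secreted inhibitor, with 79 and 40 (1.69), and kremen2, which acts with Dkk1, with 485 and 384 (1.05). The lower ones were the secreted inhibitors frzb, with 2 and 32 UMIs (-3.29), wif1, with 1077 and 4888 (-1.47), and notum, with 30 and 146 (-1.57), the Wnt-cleaving protease trabd2a, with 66 and 685 (-2.66), and lrp4, with 159 and 892 (-1.78). ctnnb1, which encodes β-catenin, had 290 CPM at 24hpa and 346 CPM uninjured (-0.26), and wls, which carries Wnts out of the cell, 80.2 and 55.1 CPM (0.54). In neural cells 27 could be compared, none was at least 2-fold higher, and kremen1, trabd2a and wif1 were lower, where 8.76% and 8.88% of all genes were. Within Skeletal Muscle 0 of 22 were higher and 13 lower, against 6.21% and 33.3% of genes. Within Dermomyotome 1 of 17 was higher and 10 lower, against 3.56% and 34.4%. No other cluster had more than 5 lower, a count reached in Notochord and Satellite Cells/Differentiating Myotome with 24 compared in each. The other 24 genes compared over all cells were within 2-fold, and the secreted ones that differed did so in both directions.

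Of 11 genes listed as Wnt targets, 7 were found and 5 could be compared over all cells, and 4 of them were at least 2-fold lower at 24hpa, where 10.7% of all genes were. These were msgn1, a gene of presomitic mesoderm, with 0 UMIs at 24hpa and 102 uninjured (log2 ratio -4.37 or lower), t (brachyury), with 222 and 1223 (-1.75), cdx2, with 139 and 711 (-1.64), and cdx4, with 129 and 446 (-1.08). ccnd1 had 59 and 95 UMIs (0.03). Within clusters, 4 of 4 were at least 2-fold lower in Satellite Cells/Differentiating Myotome, where 18.7% of genes were. So were 2 of 4 in Spinal Cord Progenitor (9.64% of genes) and 1 of 2 in Differentiating Neuron (14.5%). The 1 target compared was also lower in Goblet Cells (21.7%), Motor Neuron (8.67%) and Skeletal Muscle (33.3%). None of 3 was 2-fold lower in Notochord (12.3%), which had 63 cells at 24hpa and 291 uninjured. There t stood at 136 and 176 CPM (-0.37). The 1 target compared in Small Secretory Cell 1 and in Vulnerable Motor Neuron was within 2-fold. In ROC cdx2 was higher, at 42.0 and 20.3 CPM (1.05), where 14.5% of genes were. These genes mark the tail bud and posterior axis as well as Wnt activity, and t also marks notochord, so their part in a readout of Wnt signalling was not tested. In neural cells 4 could be compared, and t, with 0 and 43 UMIs, and cdx2, at 15.6 and 70.8 CPM (-2.18), were lower.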

How the data were processed

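Single-cell RNA-seq (10x 3′ version 2) was read from 1 library of sorted cells a group. The authors made the UMI counts per gene and barcode with Cell Ranger, kept cells with enough detected genes, integrated the libraries and clustered them with Seurat, and deposited raw counts with tables that assign cells to clusters. The annotation and genome build behind the counts are not given in the sources used here, and no coordinates or sequences are given. Of the tables' columns, 29 were not used. Of 14374 gene identifiers, 12993 carried a name, and 32 of the 34 members matched a RefSeq symbol.

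Here, counts were summed per gene, library and cluster and scaled to CPM, with exact Poisson intervals for levels and exact conditional intervals for ratios (95%, counting error only). A 0 was set to 3 UMIs over the group in a ratio, which is then a bound. A member was compared with at least 20 UMIs over both libraries, in clusters of at least 20 cells in each, and called at 2-fold. With 1 library a group there was no test. Thinning to 2600 UMIs per cell left out 0 cells. Doublets were kept, and 1 alternative left out the 5% of cells with the highest Scrublet score. Free RNA was read from barcodes of 1 to 100 UMIs. Cells of the neural class missing from the neural table (2) entered only the sums over all cells.

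The members and lists were chosen with earlier results of these data known. Members with at least 100 UMIs, or at least 2-fold different, are named with values. The alternatives were TMM scaling, the mean of CPM per cell, a minimum of 1000 genes per cell, other UMI minimums, clusters weighted to the uninjured makeup, 10% of free RNA subtracted, thinning, and neural cells without Motor Neuron (leptin+). The ratio calculation was tested on simulated data. Python 3.11.15, numpy 2.4.6, scipy 1.17.1, pandas 2.3.3, scanpy 1.11.5, matplotlib 3.10.9, R 4.3.3 and edgeR 4.0.16 (for TMM) were used.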

Additional observations from a re-analysis of the deposited data

Results flagged for a closer look

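For 4 members the log2 ratio, 24hpa over uninjured, was at least 2-fold in opposite directions in 2 cell clusters, with neither counting interval crossing 0. Each pair given here is the highest and the lowest cluster of that member. rspo2 (1.55 in Myotome, -1.36 in ROC) and fzd6 (1.06 in Myotome, -3.99 in Dermomyotome) were also 2-fold in both directions. Their intervals in Myotome crossed 0. wnt11 had a ratio of 3.32 in Vulnerable Motor Neuron, where 1 cell held 11 of the 22 UMIs at 24hpa, and -2.63 in Myotome. wnt5b had 2.005 in ROC and -2.28 in Satellite Cells/Differentiating Myotome. sfrp2 had 4.33 in Mesenchyme and -1.21 in ROC. dkk1 had 1.16 in Bipotent Progenitor and -4.28 in Skeletal Muscle, the first with an interval whose lower end rounds to 0.00. With 1 library a group the difference between clusters was not tested.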

How the results depend on the processing

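No paired analysis was possible because each group has 1 library, and for the same reason no library could be left out. Over all cells 6 of 28 members were at least 2-fold higher at 24hpa, where 875 of 11202 genes were. Once clusters were weighted to the uninjured makeup, 3 of 28 members were, against 635 of 11201 genes. Among neural cells 4 of 25 were higher, against 832 of 9501 genes. At a minimum of 50 UMIs 2 of 17 were, against 579 of 8180 genes. After thinning 1 of 15 was, against 857 of 7543 genes, so that member count did not exceed the share of all genes. Of member and cluster pairs 24 were higher, with 37 at a minimum of 10 UMIs, 49 with no minimum, 15 at 50 UMIs and 11 after thinning, and 50 were lower, with 27 at 50 UMIs and 16 after thinning. Fewer values reach the minimum at 50 UMIs and after thinning. Pairs were not weighted to the makeup. The share over pairs of any gene and cluster was not computed under the alternatives, so these counts of pairs have no background there.

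Of 396 values of single members under an alternative, 25 changed sign, 19 of them under 2-fold as reported and 6 at least 2-fold. Of the 25, 11 came from thinning and 9 from weighting. Weighted to the uninjured makeup, rspo1 had a log2 ratio of -0.085 and rspo2 of -0.15 over all cells, and rspo2 of -0.13 in neural cells. After thinning, lef1 had -0.92 in neural cells and wnt10b 0.26 over all cells and 0.99 in neural cells. The cause of the changes after thinning was not tested. Apart from these 6, 17 values were no longer 2-fold and 15 became so. Depth limits wnt2, wnt10b and the members under 20 UMIs most, and the spread between tadpoles is unknown.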
